A study of Mus musculus with 6 samples.

Results

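The comparison concerns how the map of open chromatin in CD4 T cells cultured under Th17 conditions differed between 48 h and 72 h. The peak list of the 48 h cells and that of the 72 h cells were merged wherever peaks had at least 1 bp in common, which gave 59623 regions out of 81315 for the whole series, naive cells included. A region with peaks from both lists was called shared, a region with a 72 h peak only was called gained, and a region with a 48 h peak only was called lost. Of the regions, 21320 (35.8%, 95% interval 35.4 to 36.1%) were gained, 6307 (10.6%, 10.3 to 10.8%) were lost and 31996 (53.7%, 53.3 to 54.1%) were shared. The intervals are exact Clopper-Pearson binomial intervals and cover counting error only.

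The cells were CD4 T cells of C57BL/6 mice, activated with 0.25 µg/mL of plate-bound antibody to CD3ε and 1 µg/mL of antibody to CD28 in the presence of 0.1 ng/mL TGF-β and 20 ng/mL IL-6. Antibodies to CD3ε and CD28 stand in for antigen and costimulation, and the cytokine pair directs cells toward the Th17 fate. The compared groups had the same strain, antibodies and cytokines and differed in the time of culture, 48 h or 72 h. For each library 10000 cells were exposed to the Tn5 transposase, which cuts and tags accessible DNA (ATAC-seq), and fragments of 150 to 350 bp were kept. Each time has 2 libraries that the labels call biological replicates, but 1 peak list per time was analysed, so no difference below has a replicate check, no test was possible, and no p-value is given. A region without a peak is one where no peak passed the authors' calling, which is not a measurement of closed chromatin.

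Th17 cells are helper T cells that make IL-17A and IL-17F and defend epithelial surfaces against fungi and extracellular bacteria. IL-6 acts through the transcription factor STAT3, and together with TGF-β it induces the lineage factors that drive the cytokine genes. BATF and IRF4 bind DNA early after activation and prepare many of the sites that later lineage factors use. Transposase peaks mark promoters and enhancers where nucleosomes are displaced.

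The starts of 8 genes illustrate the kinds of change described below, and their sequences are shown for orientation. Each is the 250 bases before an annotated start, 5′ to 3′ on the gene's own strand, from RefSeq on GRCm38.p6. Capitals mark bases inside the merged ATAC-seq region that overlaps this window, called the start region below, and lower case marks bases outside it. The Ccr6 region ends before the start itself. In Il17a (chr1:20730655-20730904, plus strand), Il17f (chr1:20784271-20784520, minus strand) and Il1r1 (chr1:40224830-40225079, plus strand) the region was gained. In Il2 (chr3:37125955-37126204, minus strand) it was lost. In Il18r1 (chr1:40465302-40465551, plus strand) and Ccr6 (chr17:8242276-8242525, plus strand) it was shared and fell in rank. In Lef1 (chr3:131110047-131110296, plus strand) and Il4ra (chr7:125552021-125552270, plus strand) it was shared and rose in rank. The Il17f, Il1r1 and Ccr6 windows belong to annotated starts that lie inside the outer bounds of the gene.
Il17a: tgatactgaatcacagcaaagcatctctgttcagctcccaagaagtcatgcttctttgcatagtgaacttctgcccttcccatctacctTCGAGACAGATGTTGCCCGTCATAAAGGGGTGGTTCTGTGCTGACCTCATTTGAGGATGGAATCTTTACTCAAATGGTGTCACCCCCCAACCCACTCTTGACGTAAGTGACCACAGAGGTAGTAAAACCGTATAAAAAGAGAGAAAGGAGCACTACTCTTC
Il17f: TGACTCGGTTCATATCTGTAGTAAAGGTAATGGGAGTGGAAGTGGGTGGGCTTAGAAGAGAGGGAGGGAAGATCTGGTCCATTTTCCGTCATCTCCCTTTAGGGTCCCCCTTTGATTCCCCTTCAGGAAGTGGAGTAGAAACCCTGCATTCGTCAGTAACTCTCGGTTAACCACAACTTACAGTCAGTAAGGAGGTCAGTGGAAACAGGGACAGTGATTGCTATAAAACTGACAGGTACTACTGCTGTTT
Il1r1: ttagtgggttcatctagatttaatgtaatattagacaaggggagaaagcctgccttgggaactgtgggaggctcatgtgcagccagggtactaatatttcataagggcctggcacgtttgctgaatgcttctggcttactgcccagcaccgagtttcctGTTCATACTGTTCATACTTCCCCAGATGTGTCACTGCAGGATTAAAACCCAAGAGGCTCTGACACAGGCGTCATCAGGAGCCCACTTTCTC
Il2: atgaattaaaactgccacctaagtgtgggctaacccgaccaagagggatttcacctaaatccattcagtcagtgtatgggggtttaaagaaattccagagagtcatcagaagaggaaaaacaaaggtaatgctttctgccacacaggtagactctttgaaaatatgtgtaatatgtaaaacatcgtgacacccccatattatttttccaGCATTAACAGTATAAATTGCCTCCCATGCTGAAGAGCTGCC
Il18r1: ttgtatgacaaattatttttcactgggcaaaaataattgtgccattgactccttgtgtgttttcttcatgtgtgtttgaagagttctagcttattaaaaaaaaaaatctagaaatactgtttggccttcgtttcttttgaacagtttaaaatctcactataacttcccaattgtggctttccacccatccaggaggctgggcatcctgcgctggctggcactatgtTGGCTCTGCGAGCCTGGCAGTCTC
Ccr6: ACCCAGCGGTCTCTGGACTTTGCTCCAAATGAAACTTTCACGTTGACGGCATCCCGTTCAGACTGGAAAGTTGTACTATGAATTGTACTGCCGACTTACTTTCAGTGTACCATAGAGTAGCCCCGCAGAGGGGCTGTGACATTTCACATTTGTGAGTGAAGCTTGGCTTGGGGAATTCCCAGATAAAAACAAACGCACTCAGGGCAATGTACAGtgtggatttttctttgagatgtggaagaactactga
Lef1: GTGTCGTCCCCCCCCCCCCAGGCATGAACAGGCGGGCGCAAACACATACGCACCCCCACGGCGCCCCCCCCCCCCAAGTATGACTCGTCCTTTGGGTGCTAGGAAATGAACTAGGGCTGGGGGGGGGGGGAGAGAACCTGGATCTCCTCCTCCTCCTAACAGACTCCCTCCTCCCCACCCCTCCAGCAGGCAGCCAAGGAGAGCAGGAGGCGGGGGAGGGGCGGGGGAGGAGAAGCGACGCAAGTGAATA
Il4ra: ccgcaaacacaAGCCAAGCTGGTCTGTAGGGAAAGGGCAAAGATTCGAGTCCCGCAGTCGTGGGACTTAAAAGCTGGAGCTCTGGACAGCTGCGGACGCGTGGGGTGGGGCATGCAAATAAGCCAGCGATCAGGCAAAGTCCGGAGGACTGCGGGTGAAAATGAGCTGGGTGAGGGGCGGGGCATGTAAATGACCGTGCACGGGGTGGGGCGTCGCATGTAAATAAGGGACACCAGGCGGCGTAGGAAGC

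The region covered 161 of the 250 bases in Il17a, all 250 in Il17f and Lef1, 239 in Il4ra, 214 in Ccr6, 91 in Il1r1, 41 in Il2 and 24 in Il18r1. Short motifs were searched on both strands of each window. Il17a held the AP-1 letters TGAATCA, whose first base lies 244 bases before the start and outside the capitals. Il17f held the RUNX letters AACCACA 82 bases and the TCF and LEF letters CTTTGAT 141 bases before the start. Ccr6 held the GATA letters AGATAA 70 bases and the NF-κB letters GGGAATTCCC 80 bases before the start. Lef1 held the KLF letters CCCCACCC 78 bases before the start, and Il4ra held GGGTGGGG 148 and 48 bases before it. None of the searched letters occurred in the printed windows of Il1r1, Il2 and Il18r1. A match describes the letters and is no evidence of binding.

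The later list was longer. There were 40624 peaks at 48 h, which covered 12.6 Mb, and 53926 at 72 h, which covered 17.7 Mb. Median peak widths were similar, 234 and 239 bp. Each peak carries a whole-number score given by the authors, from 30 to 1260 with a median of 69 at 48 h and from 30 to 1103 with a median of 76 at 72 h. The scale of the score and the read depth are unknown, so a difference in list length cannot be told apart from one in depth or in calling. For that reason the main counts are also given with the 72 h list cut to its 40624 highest-scoring peaks, which left out 13302 peaks. The cut fell at a score of 48, where 465 of 522 peaks were kept, the wider ones first.

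With equal lengths the classes were closer in number. Merging gave 49954 regions, of which 11621 (23.3%, 22.9 to 23.6%) were gained, 9667 (19.4%, 19.01 to 19.70%) were lost and 28666 were shared. In the full lists 40.0% of the 72 h regions had no 48 h peak and 16.5% of the 48 h regions had no 72 h peak. With the cut these shares were 28.8% and 25.2%. The ratio of gained to lost regions thus depended on the list lengths. When peaks with a score under 50 were left out of both lists, 15684 regions were gained and 4264 lost. That filter puts the same score on lists whose scales are not known to match. It does not set equal lengths, so it does not bear on the dependence on list length.

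Gained and lost regions were narrow and of low score. Their median width was 163 bp for gained and 136 bp for lost regions, against 384 bp for shared regions. A shared region spans the merged peaks of both lists, and wider peaks meet the 1 bp rule more easily. Part of the contrast in width thus follows from the merging. The median 72 h score was 51 in gained and 114 in shared regions, and the median 48 h score was 44 in lost and 81 in shared regions. When the regions of each list were put in 10 bins by score, the lowest bin at 72 h (scores 30 to 38) held 78.3% gained regions and the highest (223 to 1103) 0.980%, which is 52 of 5304 regions. In the lowest bin at 48 h (30 to 37) 43.2% were lost, and in the highest (175 to 1260) 1 region of 3830 was lost. The share fell from bin to bin in both lists, so the strongest sites of either time were nearly all present at the other.

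**Figure D1:**
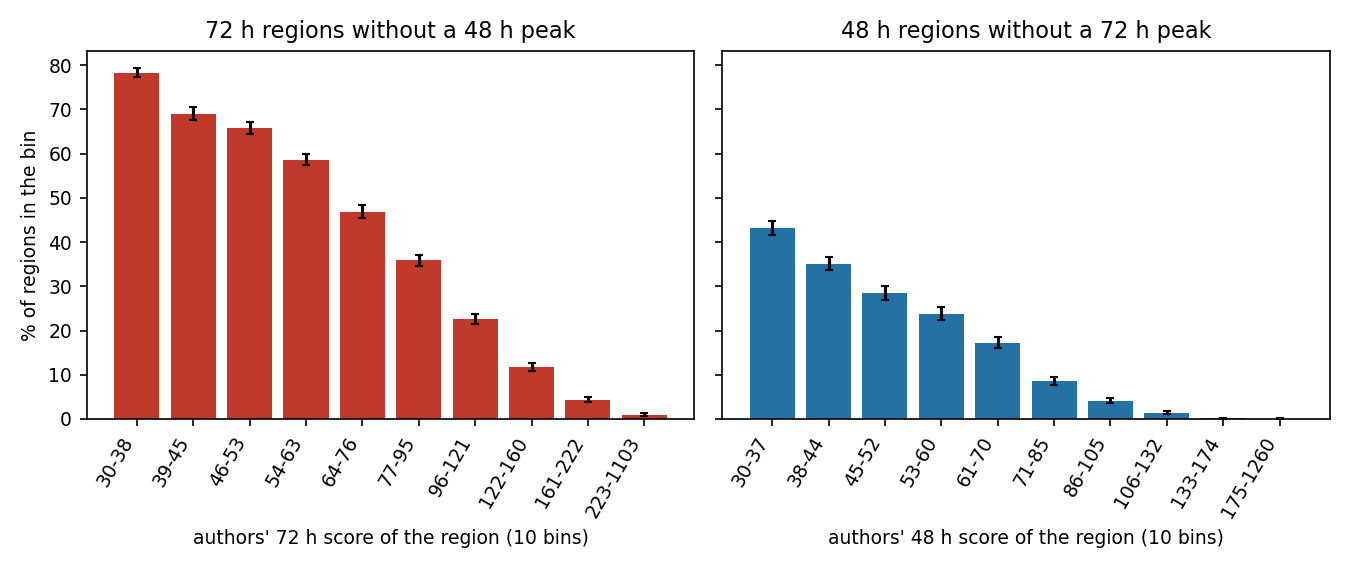
Share of 72 h regions that had no 48 h peak (left) and of 48 h regions that had no 72 h peak (right), in 10 bins of the authors' score; bars are percentages of the regions in a bin and error bars are exact 95% binomial intervals. The share drops from 78.3% to 0.980% at 72 h and from 43.2% to 0.0261% at 48 h.

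The changing regions lay away from gene ends. Near a gene end, that is with the middle within 1 kb of the start or end of a coding gene, lay 12.5% (12.1 to 13.0%) of gained and 14.1% (13.3 to 15.0%) of lost regions, against 34.3% (33.8 to 34.8%) of shared regions. Inside genes lay 49.4% of gained, 47.8% of lost and 36.8% of shared regions, and between genes lay 38.1%, 38.0% and 28.9%. With the cut, 10.8% of gained, 14.8% of lost and 36.4% of shared regions lay near gene ends. Gained regions were thus slightly less often at gene ends than lost ones, and both were there far less often than shared regions, beyond counting error. Gene ends here pool starts and ends, and the order of gained and lost regions did not hold at annotated starts. A window at an annotated start, defined below, was touched by 3.49% (3.25 to 3.75%) of gained and 2.84% (2.44 to 3.28%) of lost regions. These intervals overlap. For shared regions the share was 26.4%. With the cut the shares were 3.49% of gained, 3.55% of lost and 28.8% of shared regions.

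**Figure D2:**
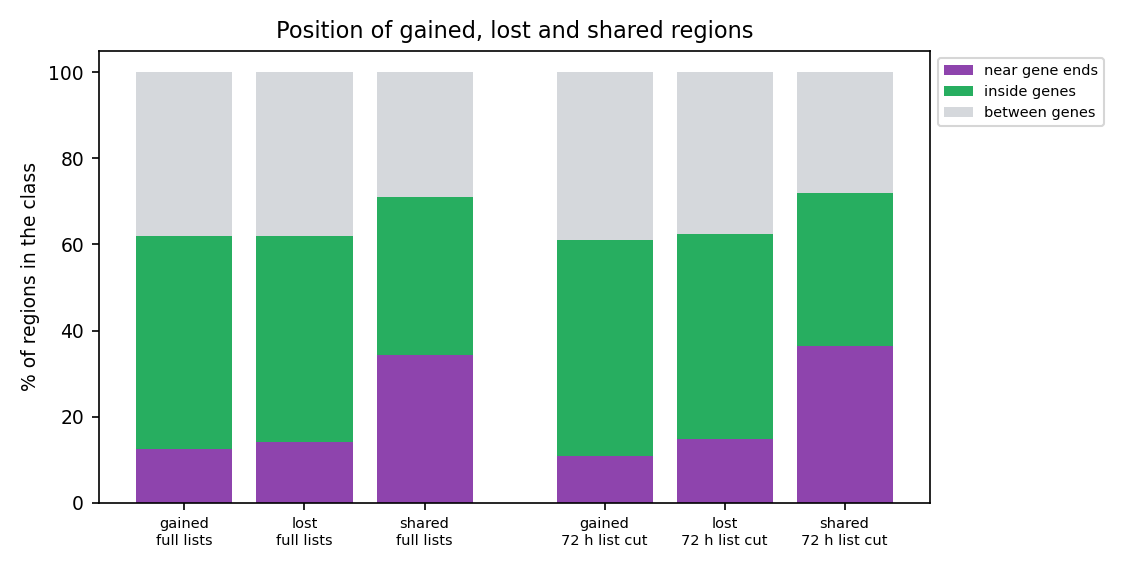
Position of gained, lost and shared regions with the full lists and with the 72 h list cut, as stacked percentages of each class. Near gene ends lay 12.5% of gained, 14.1% of lost and 34.3% of shared regions in the full lists.

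Some gained and lost regions lay close to a shared region. The median distance to the nearest shared region was 10.2 kb for gained and 8.36 kb for lost regions, and 21.7% (21.2 to 22.3%) of gained and 28.1% (26.96 to 29.19%) of lost regions lay within 2 kb of one, and 17.1% and 25.6% with the cut. Lost regions also more often coincided with a peak of naive cells. A naive peak overlapped 39.0% (37.8 to 40.2%) of lost, 30.2% (29.6 to 30.8%) of gained and 66.6% (66.1 to 67.2%) of shared regions. With the cut the shares were 43.0%, 30.4% and 68.4%. The same order held inside genes, where 36.4% of lost and 27.8% of gained regions had a naive peak, and between genes, where 36.9% and 27.7% did.

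The highest-scoring gained regions were distal. The gained region with the highest 72 h score, 325, lay at chr2:148522093-148522541, 78558 bp from Cd93. Others among the 10 highest had scores of 297 inside Slc4a4, which encodes a sodium bicarbonate cotransporter, 293 at 45204 bp from Peg10 and 292 inside Itga4, the integrin α4 chain used by T cells to enter tissue. None of these named regions overlapped a naive peak or lay near a gene end. The lost region with the highest 48 h score, 233, was 142 bp wide at chr1:171074408-171074549, 8493 bp from Fcgr3. The next lost regions had lower scores, 147 at 10850 bp from Gab1, 139 at 3759 bp from Ralgps2, and 137 inside Whrn and at 263068 bp from Stmn2.

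For shared regions the authors' scores were turned into percentile ranks within each list, among the 31996 shared regions only, and the difference of 72 h minus 48 h is given in points. The scores themselves are not compared between lists. Across shared regions the scores had a Spearman correlation of 0.734, a description in which each point is a region and all points come from the same lists. A rise of at least 25 points was found in 3552 regions (11.1%) and a fall of at least 25 points in 3464 (10.8%). With the cut 3256 rose and 3148 fell. Since ranks are relative, similar numbers of rises and falls follow from the measure. The choice of ranks among shared regions matters, because percentiles taken in the whole lists gave 5713 rises and 1916 falls.

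Rank shifts were rarer at gene ends. Near gene ends 7.44% of 10967 shared regions rose and 5.85% fell, inside genes 13.0% and 12.8% did, and between genes 13.0% and 14.2% did. Shared regions near gene ends also had higher scores, with medians of 117 at 48 h and 169 at 72 h. Inside genes the medians were 70 and 97, and between genes 70 and 95. The part of score in the rarer shifts was not tested. The regions that rose had a median 48 h score of 47 and a median 72 h score of 138. Those that fell had median scores of 96 and 62. Rises and falls were called from the ranks of these same scores, so the direction of both pairs follows from the call. The length covered by peaks was greater at 72 h in 83.1% of the regions that rose, in 47.8% of those that fell and in 68.0% of all shared regions. The largest rise, 92.1 points, was at chr1:182361861-182362182, 20255 bp from Fbxo28, with a score of 33 at 48 h and 302 at 72 h. The largest fall, −84.1 points, was at chr10:85163020-85163233 inside Cry1, a repressor of the circadian clock, with scores of 158 and 30.

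**Figure D3:**
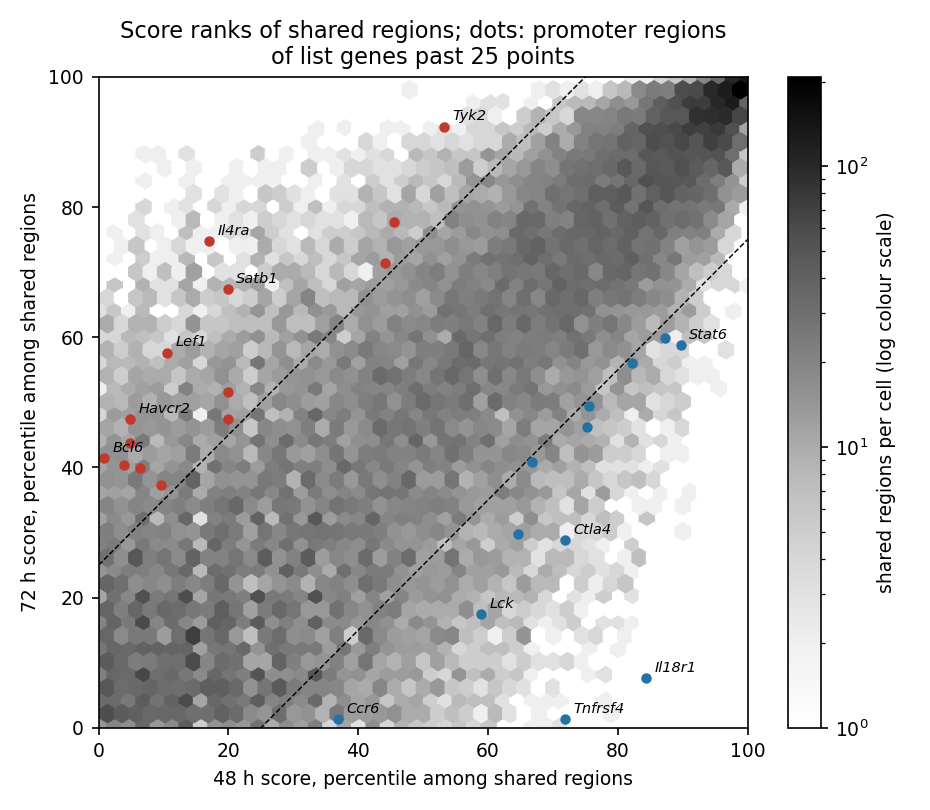
Percentile rank of the authors' score at 48 h (horizontal) and 72 h (vertical) for all shared regions, with grey cells shaded by the number of regions on a log scale and dashed lines at a difference of 25 points. Dots are shared regions at the annotated starts of list genes that rose (red) or fell (blue) by at least 25 points; Il18r1 and Tnfrsf4 lie at the lower right, with falls of −76.7 and −70.6 points, and Il4ra at the upper left with a rise of 57.7.

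Regions were assigned to every protein-coding gene whose body, extended by 10 kb on each side, they overlapped. At least 1 region lay at 16255 genes. More gained than lost regions were found at 8346 genes (51.3%), more lost than gained at 1936 (11.9%), and equal numbers, none included, at 5973. With the cut, 4488 of 15861 genes (28.3%) had more gained and 4082 (25.7%) more lost regions. Of the 8346 genes, 4488 kept an excess of gained regions with the cut, 3001 became even and 857 turned to an excess of lost regions. The excess also depended on how many regions a gene had. More gained than lost regions were found at 22.2% of genes with 1 region and at 95.3% of the 106 genes with 20 or more, and with the cut at 11.3% and 50%. With the cut the share with more lost regions was also higher in genes with many regions, 10.3% and 40.6%.

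The 10 genes with the most gained regions in the full lists also had at least 7 shared regions each. Foxp1, which encodes a transcription factor of quiescent T cells, and Arhgap26, a GTPase activator, had 19 gained regions each, with 8 and 5 lost. Bach2, a repressor that restrains effector programmes, had 17 gained and 4 lost regions. Pde4d, a cAMP phosphodiesterase, and Itpr1, the IP3 receptor of calcium release, each had 17 gained and 1 lost. Pcca had 16 gained and 2 lost, Arid1b 16 and 2, and Stk39 15 and 1. With the cut Foxp1 changed to 8 gained and 12 lost regions, Bach2 to 7 and 8, Arhgap26 to 10 and 7, and Pde4d to 8 and 7. Itpr1 had 9 gained and 3 lost regions with the cut, and Pcca 11 and 3. Slc4a4, with 2 shared regions, had 14 gained and 2 lost regions, and 9 and 2 with the cut.

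The genes with the most lost regions were also large. Msi2, an RNA-binding protein, had 10 lost beside 15 gained regions, and 10 beside 11 with the cut, and Inpp4b, a phosphoinositide phosphatase, 9 beside 12. With the cut Inpp4b had 10 lost and 5 gained regions. Ubash3b, a phosphatase that dampens T cell receptor signalling, had 4 gained and 6 lost regions, and 1 and 9 with the cut. Ext1 had 9 lost and 2 gained regions with the cut.

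Lists of genes were then examined by role, as counts of distinct gained and lost regions at their members. List genes had more regions, a median of 5 per gene against 3 for all genes with a region, so a larger part of them could differ. With the full lists gained regions outnumbered lost ones in 19 of 20 lists and equalled them among myeloid markers, with 2 and 2. With the cut, 11 of those 19 changed to more lost than gained regions, and myeloid markers had 0 gained and 2 lost.

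**Figure D4:**
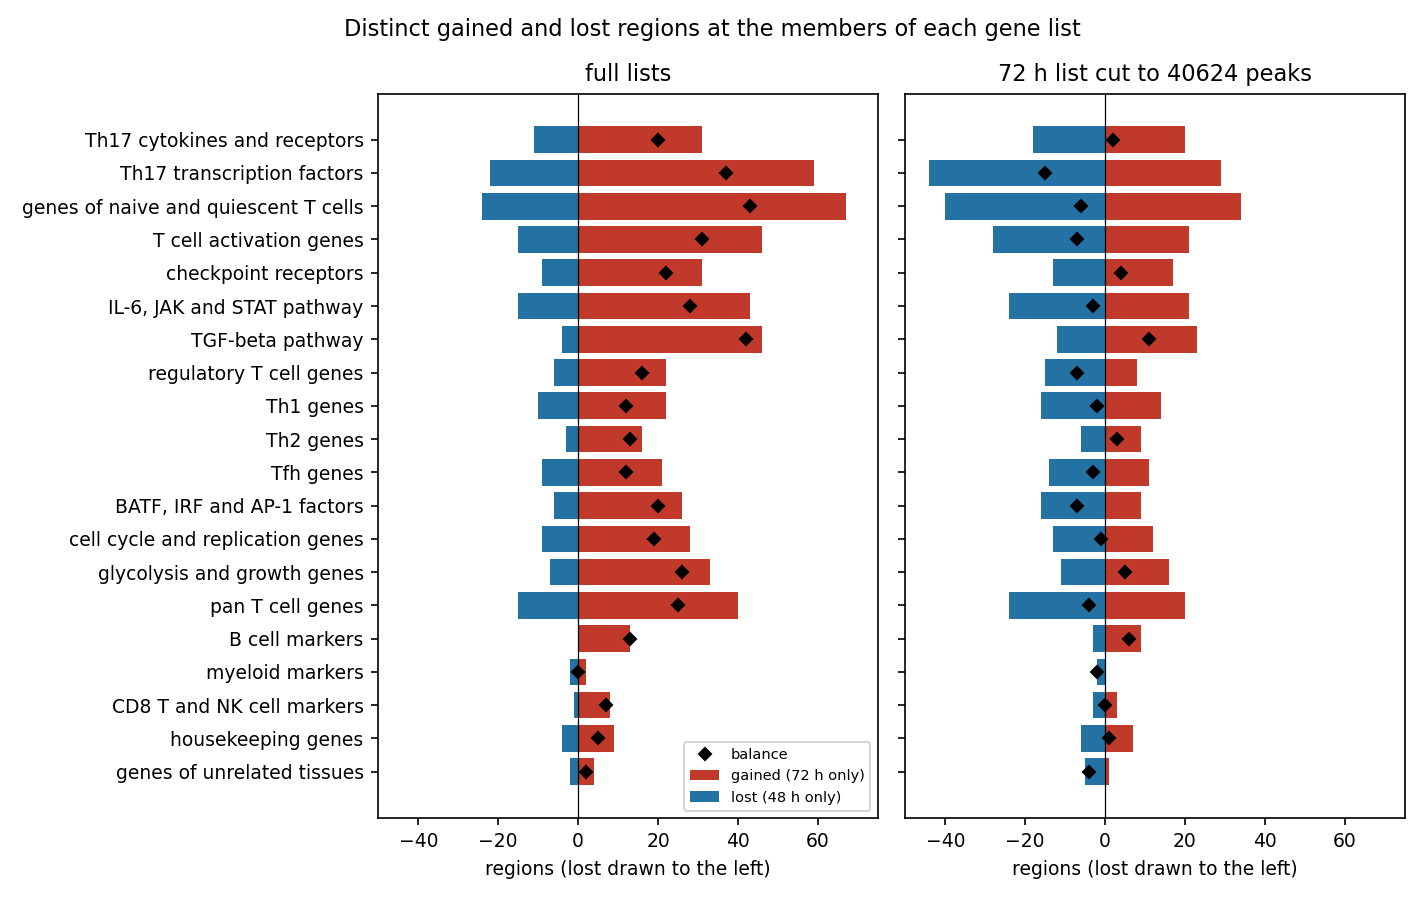
Number of distinct gained (red, to the right) and lost (blue, to the left) regions at the members of each gene list, with the full lists and with the 72 h list cut to 40624 peaks; diamonds mark gained minus lost. The diamonds of 11 lists cross from the gained to the lost side with the cut. Those of 7 lists stay on the gained side. They include the TGF-β pathway and Th17 cytokines and receptors, but also B cell markers and housekeeping genes.

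The Th17 cytokine and receptor genes had 31 gained, 11 lost and 51 shared regions, and 20 gained and 18 lost with the cut. Of the 18 members, 10 had more gained regions and 3 more lost, beside 51.3% and 11.9% of all genes with a region. With the cut 7 and 4 members did, beside 28.3% and 25.7%. Il22 had no region in either list. Of the 51 shared regions 3 rose and 13 fell in rank, with a median of −5.46 points, beside 11.1% and 10.8% among all shared regions and a median of −0.20. Several loci thus combined new peaks with lower ranks of old ones.

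At Il17a, which encodes the signature cytokine IL-17A, 2 regions were gained, none was lost and 3 were shared. The region over the start, chr1:20730744-20730997, had a 72 h score of 81 and no 48 h peak, and it remained with the cut. The gained region 4762 bp upstream had a score of 38 and was dropped by the cut. The shared regions had scores of 41 at 48 h and 72 at 72 h (841 bp after the start), 59 and 102 (5852 bp) and 166 and 183 (9765 bp), with rank differences of 16.3, 13.5 and −11.8 points. The downstream sites were thus present at 48 h while the start was without a peak.

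Il17f, the neighbouring gene for IL-17F, also had a start with a peak at 72 h only. The region over the start at chr1:20784171-20784653 was gained with a score of 76, and another, 8472 bp upstream, was gained with a score of 106. Both remained with the cut. The shared region 7353 bp upstream had scores of 118 and 194 and a rank difference of 6.38 points. Neither Il17a nor Il17f had a region with a naive peak.

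At Il1r1, the IL-1 receptor that supports Th17 responses, 4 regions were gained and 5 shared. The gained region over an internal start, chr1:40224989-40225206, had a score of 86, and 3 others inside the gene had scores of 58, 67 and 38. The shared region 7917 bp before that start fell by 66.1 points, with scores of 117 at 48 h and 38 at 72 h. With the cut Il1r1 had 3 gained and 2 lost regions.

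Ccr6, the chemokine receptor that guides Th17 cells toward CCL20, had 3 gained, 0 lost and 3 shared regions. The gained region inside the gene at chr17:8251802-8252043 had a score of 150, while the other gained regions had scores of 40 and did not pass the cut. Of the shared regions, the one at the internal start fell by 35.6 points, with scores of 65 and 32, and the one upstream of the gene fell by 38.2 points, with scores of 85 and 54. The gene held both a strong new site and weaker ranks at its old ones.

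Il23r, the receptor that sustains Th17 cells, had 3 gained, 1 lost and 4 shared regions. The gained regions had scores of 131, 50 and 46, and the lost region had a score of 56, and 2 gained and 1 lost remained with the cut. The shared region 32311 bp after the start was among the strongest of the locus at both times, with scores of 221 and 321 and a rank difference of 0.41 points. Il6ra, the IL-6 receptor chain, had 6 gained and 1 lost regions, and 3 and 1 with the cut. Il21, a cytokine that acts back on Th17 cells, had 1 gained and 2 lost regions, and 0 and 2 with the cut.

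The region over the start of Il18r1, the IL-18 receptor chain, lost rank more than nearly any other. It lay at chr1:40465528-40465885 with scores of 158 at 48 h and 44 at 72 h, fell by 76.7 points, and was among the 10 largest falls of all shared regions. With the cut it counted as lost. Inside Il18r1, gained regions lay 1924 bp after the start with a score of 76 and 10306 bp after it with a score of 56, and both remained with the cut. The region at the start overlapped a naive peak.

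Il2, the growth factor that activated T cells secrete early, showed the opposite of Il17a. Of its 5 regions 4 were lost, none was gained and 1 was shared. The cut removes 72 h peaks only, so it could have changed only the shared region, which it kept. The lost region over the start, chr3:37125768-37125995, had a 48 h score of 84 and overlapped a naive peak. The other lost regions had scores of 70 and 54, located 661 and 409 bp beyond the gene's end, and 46 at 8307 bp upstream. The shared region 2489 bp upstream rose by 55.4 points, with scores of 53 at 48 h and 207 at 72 h. At 72 h the gene thus had no peak over its start and an upstream region of high rank.

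**Figure D5:**
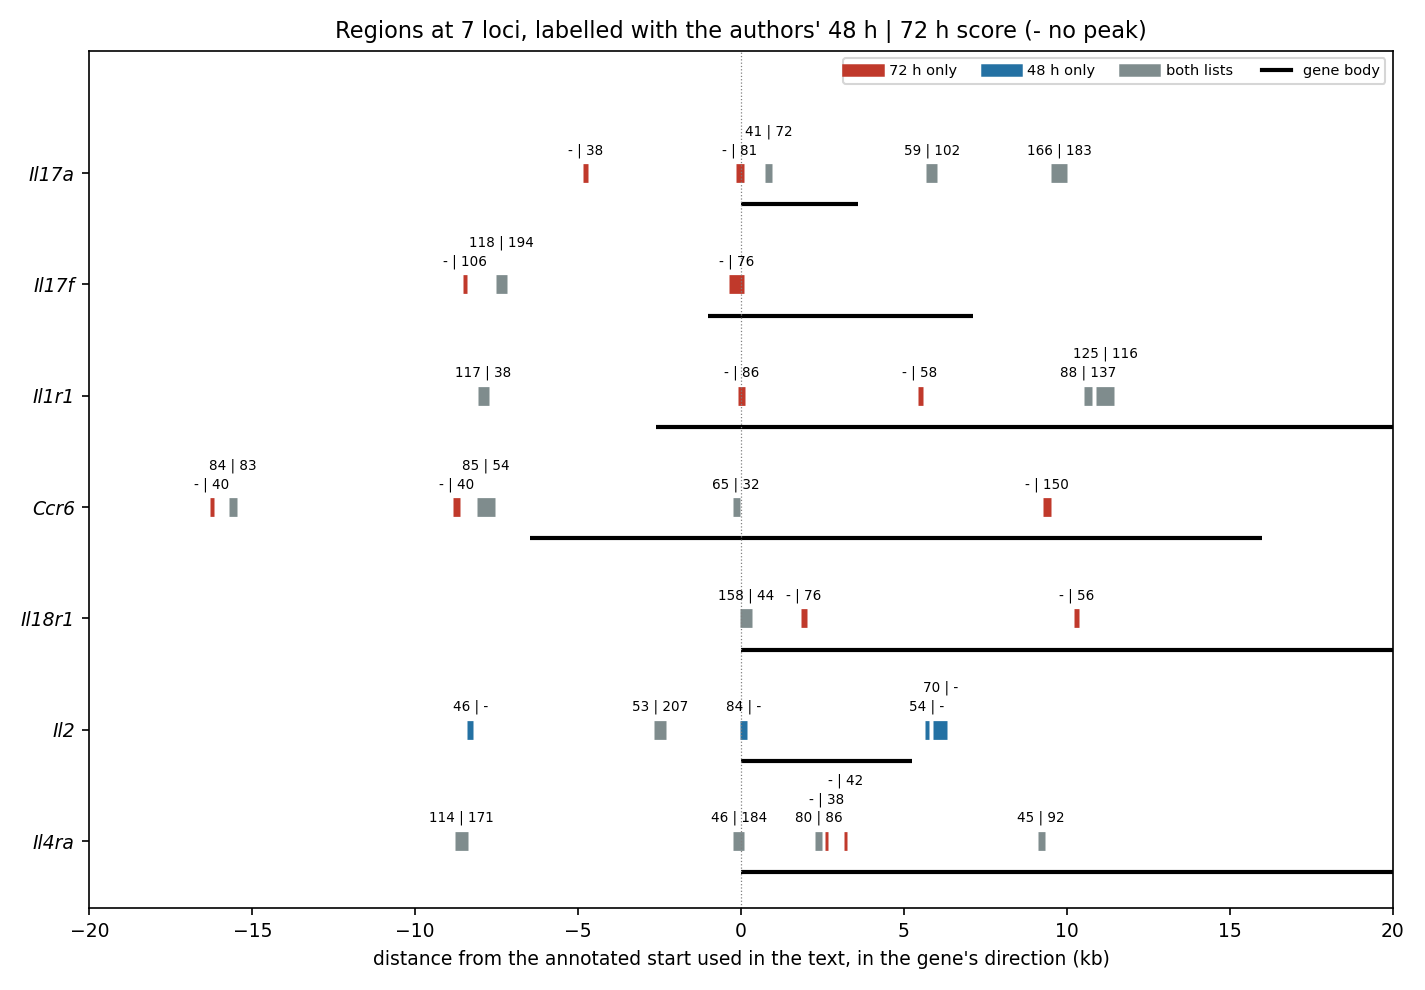
Regions within 20 kb of the annotated start of 7 genes, coloured by class and labelled with the authors' 48 h and 72 h scores; the horizontal axis is the distance from the start in kb in the gene's direction and black lines are gene bodies. The starts of Il17a, Il17f and Il1r1 carry a 72 h peak only, with scores of 81, 76 and 86, and the start of Il2 carries a 48 h peak only, with a score of 84.

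The Th17 transcription factor genes had 59 gained, 22 lost and 125 shared regions, and 29 gained and 44 lost with the cut. More gained regions were found at 14 of 18 members and more lost at 1, beside 51.3% and 11.9% of all genes with a region. With the cut they were found at 5 and 7, beside 28.3% and 25.7%. Of the 125 shared regions 9 rose and 18 fell, beside 11.1% and 10.8% of all shared regions. Rora, which encodes the nuclear receptor RORα, had 9 gained, 7 lost and 20 shared regions, and 3 gained and 11 lost with the cut. Its largest fall was a region inside the gene with scores of 98 and 34, at −58.9 points. Etv6, an ETS family repressor, had 9 gained and 0 lost regions, and 6 and 1 with the cut. Hif1a, the hypoxia factor that favours glycolysis in Th17 cells, had 6 gained and 1 lost, and 3 and 1 with the cut. Sox5 had 11 gained and 6 lost regions, and 5 and 8 with the cut.

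Stat3, the transducer of IL-6, had 2 gained and 1 lost regions, and 1 and 1 with the cut, and its start region was shared with scores of 244 and 289. Batf3 had 4 gained and 0 lost regions, Ikzf3, the factor Aiolos, 2 and 3, and Runx1 4 and 1. With the cut these were 2 and 1, 1 and 5, and 2 and 6.

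The TGF-β pathway genes had 46 gained, 4 lost and 58 shared regions, and 23 gained and 12 lost with the cut, an excess of gained regions at both list lengths. More gained regions were found at 13 of 16 members, beside 51.3% of all genes with a region. With the cut they were found at 11 of 16, beside 28.3%. No member was even with the cut and 5 had more lost regions, beside 25.7% of all genes with a region. The members had a median of 5.5 regions. Of all genes with 5 to 9 regions, 71.1% had more gained regions. With the cut 39.0% of those genes had more gained and 33.4% more lost regions. Tgfbr2, the ligand-binding receptor, had 7 gained and 0 lost regions, and 3 and 0 with the cut. Its gained regions included one of score 154 at chr9:116087295-116087533, 162 bp beyond the gene's end, one of score 101 located 6318 bp upstream and one of score 58 located 799 bp after the start. Tgfbr3, a coreceptor, had 6 and 0, Smad4, the shared partner of the receptor-activated SMAD factors, 5 and 0, and Ltbp1, which holds latent TGF-β in the matrix, 5 and 0. With the cut these were 3 and 1, 2 and 0, and 4 and 0.

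The list for IL-6, JAK and STAT signalling had 43 gained and 15 lost regions, and 21 and 24 with the cut. Stat5b, a transducer of IL-2 signals, had 6 gained and 1 lost, and 4 and 2 with the cut, and an annotated start of Stat5b had a gained region with a score of 83.

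The list of naive and quiescence genes had 67 gained and 24 lost regions, and 34 and 40 with the cut. Foxp1 and Bach2, given above, held 19 and 17 of the gained regions. Lef1, a transcription factor of naive T cells, had 7 gained and 1 lost regions, and 3 and 4 with the cut. Its start region at chr3:131109971-131110451 rose by 47.1 points, with scores of 41 at 48 h and 132 at 72 h. The start of Tcf7, its relative, rose by 23.1 points, with scores of 63 and 134, just under the threshold. A start of Satb1, an organiser of T cell chromatin, rose by 47.4 points, with scores of 49 and 159. Tcf7 and Satb1 were chosen after their values were seen, and the list as a whole did not move one way: of its 108 shared regions 9 rose and 10 fell, with a median of 0.25 points. Starts of Foxp1 had rank differences of 6.55 and −18.3 points, and that of Klf2, also chosen after its value was seen, −4.74.

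The activation genes had 46 gained and 15 lost regions, and 21 and 28 with the cut. Of their 80 shared regions 6 rose and 14 fell, beside 11.1% and 10.8% of all shared regions. Nfkb1, an NF-κB subunit, had 7 gained and 1 lost, Cd28, the costimulatory receptor, 6 and 1, and Cd44, the adhesion receptor of activated cells, 5 and 0. With the cut these were 4 and 4, 2 and 1, and 4 and 1. The start region of Tnfrsf4, which encodes the costimulatory receptor OX40, fell by 70.6 points with scores of 121 and 32, and was chosen after its value was seen.

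The checkpoint list, which also holds genes that do not encode receptors, such as Cd274 and Tox, had 31 gained and 9 lost regions. With the cut it had 17 and 13. Pdcd1, the gene of PD-1, and Cd274, the gene of its ligand PD-L1, each had 3 gained and 0 lost regions, with or without the cut. Btla had 3 and 0, and 2 and 0 with the cut. Tox, a factor of exhausted and developing T cells, had 11 gained and 5 lost, and 4 and 7 with the cut. Start regions moved in opposite directions in this list. That of Ctla4 fell by 43.1 points, with scores of 121 and 75, and that of Havcr2, the gene of TIM-3, rose by 42.6 points, with scores of 36 and 109. Ctla4 and Havcr2 were chosen after their values were seen.

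The Th2 list had 16 gained and 3 lost regions, and 9 and 6 with the cut, and its shared regions fell in rank by a median of 10.8 points, with 4 of 30 that rose and 10 that fell, beside 11.1% and 10.8% of all shared regions. The 3 falls counted at Il1rl1, the IL-33 receptor, include the start region of Il18r1, since the genes are neighbours, and Il1rl1 was chosen after its values were seen. Ccr4, a chemokine receptor, had 3 gained and 0 lost regions, and 1 and 2 with the cut, and a fall at 2 of its 3 shared regions. The start of Il4ra, the IL-4 receptor chain, went the other way and rose by 57.7 points, with scores of 46 at 48 h and 184 at 72 h. Il5 had no region.

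Th1 genes had 22 gained and 10 lost regions, and 14 and 16 with the cut, and Ifng had no region in either list. Tfh genes had 21 gained and 9 lost, and 11 and 14 with the cut. Genes of regulatory T cells had 22 gained and 6 lost, and 8 and 15 with the cut. Nrp1, a surface marker of thymic regulatory T cells, had 6 gained and 2 lost, and 1 and 4 with the cut. The BATF, IRF and AP-1 factor genes had 26 gained and 6 lost, and 9 and 16 with the cut, and Maff had 4 gained and 0 lost, and 2 and 0 with the cut. These lists gave no direction that held at both list lengths.

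Genes of growth and division came next, with housekeeping genes and genes of unrelated tissues. The glycolysis and growth list had 33 gained and 7 lost regions, and 16 and 11 with the cut. Pfkp, the platelet form of phosphofructokinase, held 8 of the gained regions and no lost one, and 5 gained and 1 lost with the cut. The cell cycle list had 28 gained and 9 lost, and 12 and 13 with the cut, with Cdk6, a G1 kinase, at 9 and 2, and 2 and 4 with the cut. Housekeeping genes had 9 gained and 4 lost regions, and 7 and 6 with the cut. Genes of unrelated tissues had 4 and 2, and 1 and 5 with the cut.

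Markers of T cells and of other lineages were also counted. Of all 21900 protein-coding genes 16255 had at least 1 region in either list, so a region at a marker does not by itself set a lineage apart. All 8 T cell markers had regions at both times, 39 regions at 48 h and 47 at 72 h, and the pan T cell list had 40 gained and 15 lost regions, and 20 and 24 with the cut. All 6 Th17 markers had regions at both times, 22 and 36. Of the B cell markers 6 of 8 had regions at 48 h and 7 at 72 h, with 13 gained and 0 lost regions (9 and 3 with the cut), of which 9 were at Ebf1 and where Ms4a1 had none. Of 8 myeloid markers 5 had regions at each time, and Lyz2, Csf1r and Adgre1 had none. Of 10 CD8 T and NK cell markers 7 and 8 had regions, with 8 gained and 1 lost (3 and 3 with the cut), and Ncr1 had none. A peak near a marker gene is not its expression, and the part of other cells in the results was not tested.

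Annotated starts were examined in 21263 RefSeq windows of 300 bases, 250 before to 50 after a start, at 17492 genes. Of these windows 743 (3.49%) touched gained but no shared regions, 153 (0.72%) touched lost regions only, and 10220 touched shared regions. With the cut 412 windows were gained and 321 lost. The median number of CpG dinucleotides was 17 in gained, 12 in lost, 23 in shared windows and 4 in windows without a region. Of the 265 list genes 198 had a window. A gained start was found at 14 of them, Ccr4, Furin, Gata3, Il17a, Il17f, Il1r1, Il21r, Il7r, Klrk1, Maff, Neurod1, Prf1, Runx3 and Stat5b, and a lost start at 4, Il2, Pkm, Ptprc and Slamf6. With the cut 11 list genes had a gained start, those of Il7r, Klrk1 and Prf1 being dropped, and 13 had a lost start, among them Batf3, Ccr6, Il18r1, Tnfrsf4 and Zap70. Names in these sentences that no list rule gives were chosen after their values were seen. Some of these genes have further starts with shared regions, as Furin and Maff do. Of 147 shared regions at the starts of list genes, 14 rose (9.52%) and 12 fell (8.16%).

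Motif letters differed in frequency between the classes of start. The ETS letters CCGGAAGT were in 9.73% (9.16 to 10.3%) of shared windows, 1.75% (0.93 to 2.97%) of gained, 1.96% (0.41 to 5.62%) of lost and 5.15% of all windows. The AP-1 letters TGANTCA were in 8.48% (6.58 to 10.7%) of gained, 4.22% (3.84 to 4.63%) of shared, 4.58% (1.86 to 9.20%) of lost and 6.99% of all windows, and in 9.71% of windows without a region. The KLF letters GGGTGGGG were in 17.1% (14.5 to 20.0%) of gained, 12.0% of shared, 14.4% (9.24 to 21.0%) of lost and 11% of all windows. The GATA letters AGATAA were in 11.8% (7.12 to 18.0%) of lost, 5.11% (3.64 to 6.95%) of gained, 4.83% of shared and 9.65% of all windows. CpG content also differed between these classes, as given above, and its part in the shares was not tested.

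The shares of the other letters follow. RUNX letters TGTGGTT were in 4.85% of gained, 3.92% of lost, 3.19% of shared and 4.71% of all windows. STAT letters TTCNNNGAA were in 5.92%, 5.23%, 6.29% and 7.69%, and ISRE letters (GAAA, any 2 bases, GAAA) in 3.63%, 3.27%, 2.61% and 3.35%, in the same order. Nuclear receptor letters AAGGTCA or TAGGTCA were in 4.17%, 6.54%, 4.1% and 6.27%, and TCF and LEF letters CTTTGAT in 1.62%, 1.96%, 2.31% and 3.22%. NF-κB letters (GGGA, any base, TTCCC) were in 0.54%, 0%, 0.58% and 0.41%. STAT and ISRE letters can fall on the same bases, and all were searched on both strands.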

How the data were processed

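ATAC-seq peak lists of Th17 cultures at 48 h and 72 h were compared, 1 list per time. The lists give intervals and, for these times, a whole-number score per peak that the authors deposited; its scale is not stated. Per the submitters' processing notes, MACS2 2.2.6, Bowtie2 2.3.4.1, deepTools and SAMtools 1.9 were used, with builds GRCm38 and mm10. Not given in the sources used here are the calling threshold, filters, duplicate handling, any Tn5 shift and whether replicates were pooled. Read depth is unknown.

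Peaks sharing at least 1 bp were merged, and a region took its highest score per list. Genes came from a RefSeq table of GRCm38.p6 (21900 protein-coding genes, 10 kb flank), and starts and sequences from RefSeq promoter windows of the same assembly. Ranks were percentiles among shared regions. Merging, gene assignment and ranks were tested on simulated data. Python 3.11.15, numpy 2.4.6, pandas 2.3.3 and scipy 1.17.1 were used. Coordinates are 1-based.

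The comparison, the 20 gene lists and the rules were chosen with earlier results of these data known. Eligible to be named were members of the Th17 lists with a gained or lost region, up to 4 members of every other list with the most unequal counts, members without a region, the 10 genes with most gained or most lost regions, and genes nearest the 10 most extreme regions of each kind. Other names are marked as chosen after their values were seen. Some eligible genes are not reported here. The naive list was used only to mark overlaps. Alternatives were the cut, a score of at least 50, the higher-scoring part of each list (50% of its peaks), an overlap of 50% of the shorter peak, merging up to 200 bp apart, flanks of 50 kb and 2 kb, and other ranks.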

Additional observations from a re-analysis of the deposited data

How the results depend on the processing

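No paired analysis was possible because 1 peak list per time was analysed, so no replicate could be left out or matched either. With the 72 h list cut to the length of the 48 h list, gained regions numbered 11621 and lost regions 9667, and genes with more gained or more lost regions 4488 and 4082. With the higher-scoring 50% of each list, gained regions numbered 9914, lost 2855 and shared 16921, and genes with more lost regions 1280. These settings keep fewer peaks by construction. Percentile ranks in the whole lists gave 5713 rises and 1916 falls. The other settings kept these counts within 1.5 times. Under the cut the difference of gained minus lost regions changed sign for 11 lists: to −15 for Th17 transcription factors, −6 for naive genes, −7 for activation, regulatory T cell and BATF, IRF and AP-1 genes, −3 for the IL-6, JAK and STAT and Tfh lists, −2 for Th1, −1 for cell cycle, and −4 for pan T cell genes and genes of unrelated tissues. The latter list was at −1 with scores of at least 50. Among 48 named genes the cut turned Rora to −8, Inpp4b to −5, Runx1 and Foxp1 to −4, Sox5, Tox and Nrp1 to −3, Cdk6 to −2, and Bach2 and Lef1 to −1. Scores of at least 50 turned Rora to −2 and Nrp1 to −1. The higher-scoring 50% turned Il6ra, Stat3, Cd44 and Cd28 to −1 and Il21 to 1, and a flank of 2 kb turned Il21 to 1. No list or named gene changed sign with the 50% overlap, the 200 bp merge or the 50 kb flank. The causes were not tested beyond the smaller number of peaks.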

Other observations

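Some gene families, found by their symbols and chosen after the data were seen, differed in the balance of gained and lost regions. The guanylate-binding Gbp genes, which encode interferon-induced GTPases, had 20 gained and 4 lost regions, and 15 and 5 with the 72 h list cut. With the cut 8 of 10 members had more gained and none more lost regions, beside 28.3% and 25.7% of all genes with a region. The Gbp genes, however, lie in clusters and share regions. The interferon-inducible Ifi genes had 19 gained and 2 lost regions, and 14 and 3 with the cut. With the cut 7 of 19 Ifi genes had more gained and 2 more lost regions, beside 28.3% and 25.7% of all genes with a region. Of the 19 Ifi genes 3 had no region in the full lists. The interferon-inducible Ifit genes had 6 gained and 2 lost regions, and 5 and 3 with the cut. Hox genes had 17 gained and 3 lost regions, and 10 and 6 with the cut. Tap2 and Psmb8, neighbouring genes of antigen processing that share their regions, had a median rank difference of 29.8 points over 6 shared regions, of which 4 rose and none fell.

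The replication-dependent histone genes had 11 gained and 16 lost regions, and 10 and 21 with the cut. More lost regions were found at 30 of 63 members in the full lists and 37 with the cut. Among all genes with a region the shares were 11.9% and 25.7%. Of the 63 histone genes 7 had no region, and these clustered genes share regions too. Gimap genes, which encode lymphocyte GTPases, had 4 gained and 6 lost regions, and 3 and 8 with the cut. Genes of cytosolic ribosomal proteins had more gained regions in the full lists, 49 against 33 lost, and more lost with the cut, 25 against 40. Proteasome genes had 31 gained and 11 lost, and 20 and 16 with the cut. Of genes with at least 5 shared regions, Trerf1 had a median rank difference of −25.2 points over 11 regions, of which 6 fell and none rose. Tnfrsf9, the gene of the costimulatory receptor 4-1BB, had −25.3 points over 5 regions, of which 3 fell and none rose by 25 points. The shared region at an annotated start of Tnfrsf9 went up by 18.7 points, under the threshold, with scores of 105 and 221. Trerf1 and Tnfrsf9 were taken from the extremes after their values were seen.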
